A study of Mus musculus with 4 samples.

Results

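Serpins and the Kazal-type (Spink) and whey acidic protein-type (Wfdc) inhibitors were examined in mouse testis. Members were the genes whose symbol in the deposited count table begins with Serpin, a clade letter from a to i and a digit, or with Spink or Wfdc and a digit. Of 58 matching symbols, 2 with a pseudogene ending were dropped, which left 56 members of 25265 genes. They comprised 40 serpins, 4 Spink genes and 12 Wfdc genes. Testis RNA of C57BL/6 mice, taken at postnatal day 56, was sequenced as ribosomal RNA-depleted total RNA, with control as the label of 2 libraries and Ythdf2-vKO as that of the other 2. The series title describes a germ cell-specific mutation of Ythdf2, the gene of a protein that binds RNA carrying N6-methyladenosine and promotes its decay. The genotype of the controls beyond that word, the Cre driver and the deleted segment are not given in the sources used here. Nothing in the labels says that the libraries came from separate animals, so p-values measure the spread between these libraries, which may be technical.

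Serpins hold out a flexible loop as bait. A protease that cuts the loop is trapped by a large change in the serpin's fold, and both molecules are inactivated. Kazal-type and whey acidic protein-type inhibitors are small disulfide-bonded proteins that block the active site of serine proteases by tight binding. In the testis such inhibitors face the acrosomal proteases of spermatids, plasminogen activators released around Sertoli cells, and proteases of blood plasma and immune cells.

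Library totals ran from 24862518 to 29561182 counts. Ythdf2 itself was no lower where the label says Ythdf2-vKO: it had 1193 and 1604 counts under the control label against 1774 and 1807 under the other, a log2 fold change of 0.35 (adjusted p 0.238, SE 0.13). The counts of the targeted gene thus do not show the mutation. With the deleted segment not given, counts over a whole gene in whole testis cannot settle whether it was deleted in germ cells. Every direction here is that of the libraries labelled Ythdf2-vKO, called vKO libraries below, relative to those labelled control. Defining markers of the testis were present, with Sertoli cell genes summing to between 1211 and 1706 CPM (counts scaled by library size) per library and elongating spermatid genes to between 8589 and 11039. In whole testis, fewer cells of a type and less RNA per cell cannot be told apart.

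Serpina3n was the member called higher in the vKO libraries, by 6.28-fold. No member was called lower. Genes were tested with edgeR's quasi-likelihood test and called at an adjusted p under 0.05 (Benjamini-Hochberg over 21132 genes). Of the 56 members, 45 had enough counts to be tested, and 1 of those 45 was called, against a background of 0.393% of all genes tested. By direction, the background was 0.279% for higher and 0.114% for lower values. At an unadjusted p under 0.05 stood 13 members with higher values in the vKO libraries, against a background of 7.65%, and 1 with lower values, against 6.47%. The vKO libraries both lay above both control libraries in 20 of the 45 (background 22.7%) and both below in 5 (background 22.6%). The log2 fold change was positive in 31 of 45 (background 50.3%), with a median of 0.37 beside 0.00 over all genes tested. Of the tested members, Serpina3i, Serpinb7 and Serpinf2 reached 10 counts in both vKO libraries and in neither control library. They entered the test only through the group where they are high. Serpina3h, Spink8, Serpina1d, Serpina1c, Serpina3f, Wfdc9 and Wfdc17 reached 10 counts in only 1 control library, so they too needed the vKO libraries to enter. The tallies above thus describe the members that passed and not all 56.

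**Figure D1:**
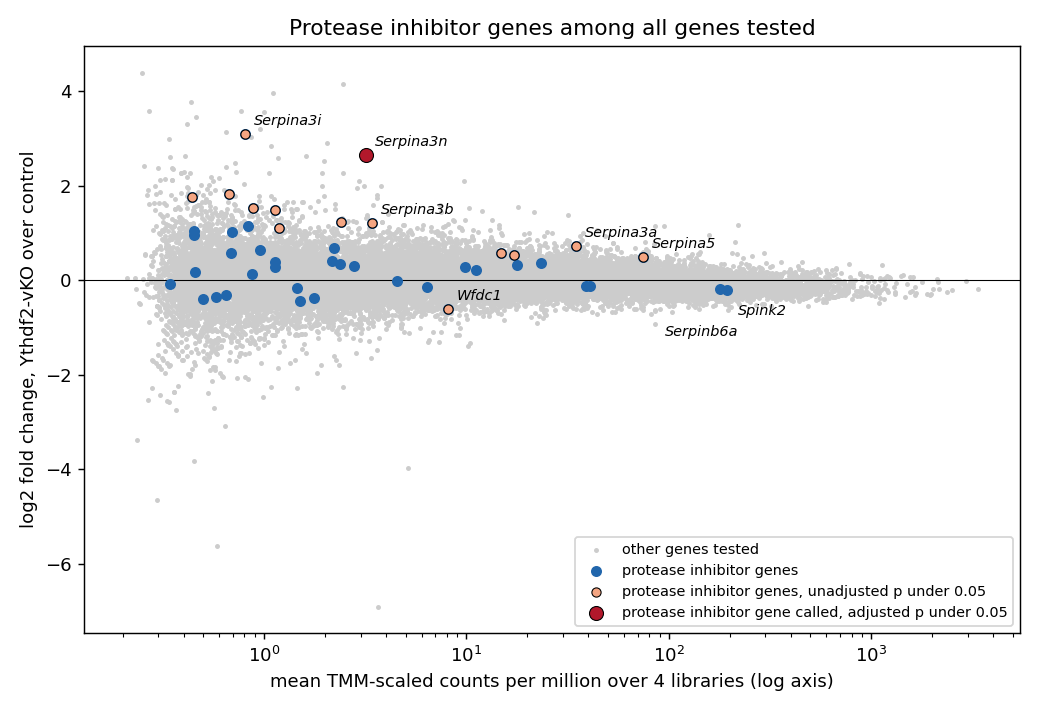
Log2 fold change of the vKO libraries over control (vertical axis) against mean CPM over 4 libraries (horizontal log axis), with 1 point per gene tested; grey points are genes outside the families. The 45 tested members are coloured, the 14 with an unadjusted p under 0.05 in orange or red, and Serpina3n, at 2.65, is the called member.

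The control libraries differed from each other across these genes. Control 1 lay below control 2 in 33 of the 45 tested members, against 50.5% of all genes tested, and the median log2 ratio of control 2 to control 1 was 0.46 among members and 0.00 among all genes. Within the vKO pair the median log2 ratio of library 2 to library 1 was -0.26. Without control replicate 1 the median log2 fold change of the members was 0.17, with 28 of 45 positive. Without control replicate 2 it was 0.69, with 37 of 45 positive. The Spearman correlation of a library's deviations with GC content was -0.4 for control 2 and 0.0238 for control 1. For vKO libraries 1 and 2 it was 0.254 and 0.189. With an offset for GC content the median log2 fold change of the members was 0.35, with 32 of 45 positive.

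**Figure D2:**
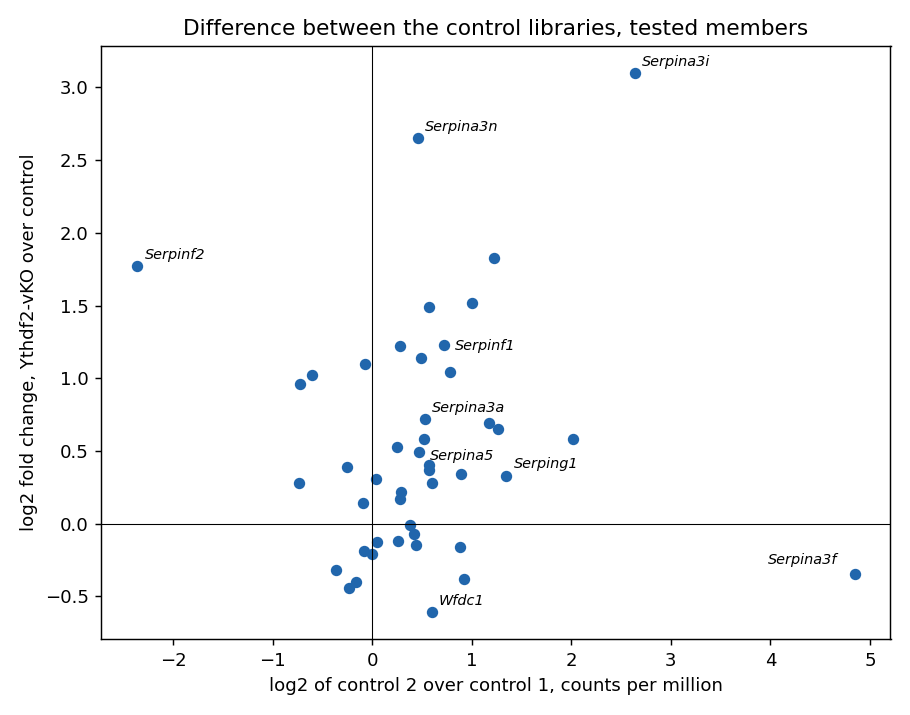
Log2 fold change of the vKO libraries over control (vertical axis) against the log2 ratio of control 2 to control 1 in CPM (horizontal axis), with 1 point for each of the 45 tested members. Points to the right of the vertical line, 33 of 45, were lower in control 1. Serpina3n lies high, with a control ratio close to the members' median of 0.46. Serpina3f lies farthest to the right and below 0.

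Serpina3n encodes a secreted clade A serpin, a mouse counterpart of human alpha-1-antichymotrypsin that is known to inhibit granzyme B and was described in the medium of cultured Sertoli cells. Its counts were 17 and 30 in control against 166 and 130 in the vKO libraries. In CPM the means were 0.864 ± 0.193 against 5.51 ± 0.978 (SD, n = 2 each). All vKO values stood far above all control values, with a log2 fold change of 2.65 (adjusted p 0.00443, SE 0.31). The gene (ENSMUSG00000021091, protein-coding) lies on the plus strand of chromosome 12, from 104406729 to 104414329 in GRCm38. The authors' deposited table gives 2.66 for the same log2 fold change, at an adjusted p of 1.7e-07. Of the genes to which the authors' deposited table gives an adjusted p, 1.32% passed 0.05. The call held in every fit that left out 1 library, with log2 fold changes from 2.45 to 2.91. No M21 gene overlaps Serpina3n, and its most similar transcript, that of Serpina3i, is 82.1% identical over 1863 nt of 2064 nt. Of the granzymes listed, Gzmm had 17 and 27 counts in control against 7 and 19 in the vKO libraries, with a log2 fold change of -0.75 (adjusted p 0.622). Too scarce to be tested, Gzmb had 0 and 3 counts in control against 1 and 7 in the vKO libraries, and Gzma had 1 and 3 against 7 and 0.

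Serpina3n closes a run of 19 clade A members on chromosome 12, between 103646630 and 104414329, a span of 768 kb. Of these, 15 were tested, 13 had a positive log2 fold change and 7 had an unadjusted p under 0.05, all with higher values in the vKO libraries (background 7.65%). The groups did not overlap in 9 of the 15, and in all 9 the vKO libraries were higher (background 22.7%). Serpina3i and Serpina3h are among the 7 and the 9, and Serpina1d is among the 9. Each of them needed the vKO libraries to enter the test. In the 9 Serpina3 genes, a group expanded in rodents, counts summed to 1115 and 2138 in control against 2635 and 2421 in the vKO libraries. Their median log2 fold change was 0.97 over the 8 tested. It was 0.78 without control replicate 1 and 1.75 without control replicate 2. Genes that flank the run had small values. Ppp4r4, the nearest tested gene before it, had a log2 fold change of -0.20 (adjusted p 0.506), and Gsc, the nearest after it, of 0.03 (adjusted p 0.983). Of 4 tested genes inside the run that are no members, 3 had positive log2 fold changes, Gm17042 of 1.18 (adjusted p 0.454), Gm8893 of 0.97 (adjusted p 0.491) and Serpina3e-ps of 0.60 (adjusted p 0.707). The pseudogene Serpina3l-ps, the other of these, had 46 and 47 counts in control against 22 and 24 in the vKO libraries, a log2 fold change of -1.04 (adjusted p 0.258).

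**Figure D3:**
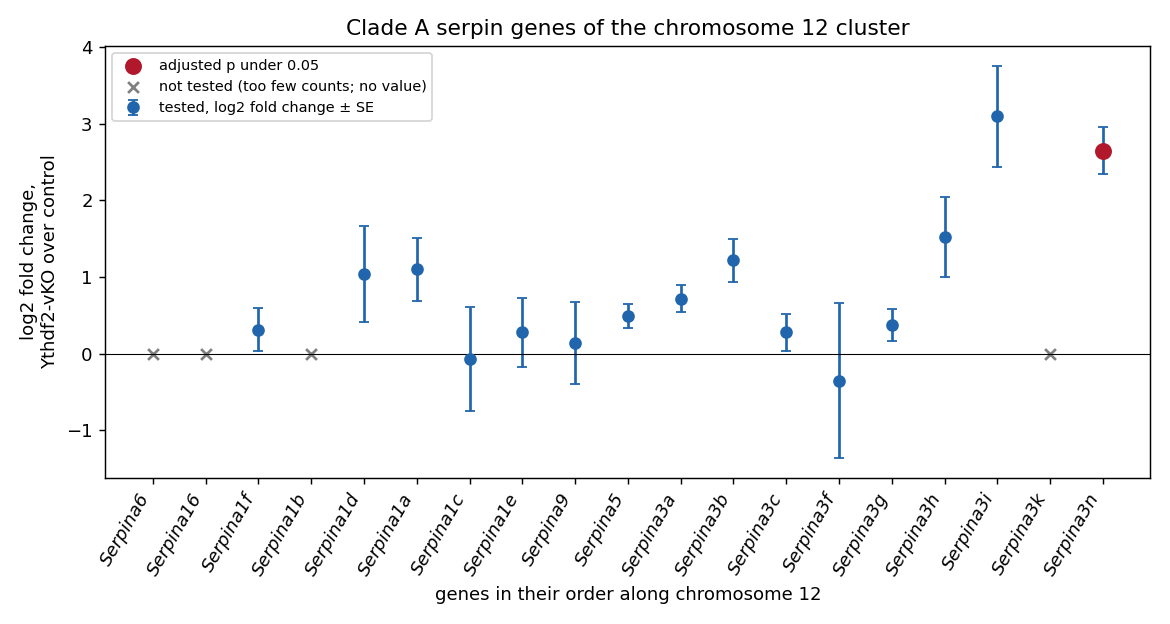
Log2 fold change of the vKO libraries over control for the 19 clade A members of chromosome 12, in chromosomal order; bars are standard errors, and grey crosses mark the 4 genes that were not tested. Serpina3n (2.65) is the called gene, Serpina3i (3.10) has a wider error bar, and Serpina3f lies below 0.

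The windows around the start sites of 5 Serpina3 genes are shown because the neighbours differed in their values. RefSeq promoter windows (GRCm38.p6), from 250 bases before to 50 after a start site, were found for 45 of the 56 members. Capitals mark CAGCATTTCCTAAGA, the longest run shared by Serpina3n, Serpina3i and Serpina3b, and the motif TATAAA read on the strand of the gene.
Serpina3n, chr12:104406458-104406757, plus strand: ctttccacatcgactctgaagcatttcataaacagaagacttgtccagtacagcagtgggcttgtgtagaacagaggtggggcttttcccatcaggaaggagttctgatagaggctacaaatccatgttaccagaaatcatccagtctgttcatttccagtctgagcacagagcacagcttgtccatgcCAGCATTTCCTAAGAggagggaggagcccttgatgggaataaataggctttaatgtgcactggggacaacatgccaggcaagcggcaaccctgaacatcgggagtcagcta
Serpina3c, chr12:104153823-104154122, minus strand: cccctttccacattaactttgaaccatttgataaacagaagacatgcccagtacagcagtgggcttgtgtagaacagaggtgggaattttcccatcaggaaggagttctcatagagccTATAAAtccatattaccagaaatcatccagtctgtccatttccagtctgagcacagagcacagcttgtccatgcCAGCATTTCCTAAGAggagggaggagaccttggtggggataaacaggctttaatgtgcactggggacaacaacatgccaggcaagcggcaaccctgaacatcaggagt
Serpina3i, chr12:104262872-104263171, plus strand: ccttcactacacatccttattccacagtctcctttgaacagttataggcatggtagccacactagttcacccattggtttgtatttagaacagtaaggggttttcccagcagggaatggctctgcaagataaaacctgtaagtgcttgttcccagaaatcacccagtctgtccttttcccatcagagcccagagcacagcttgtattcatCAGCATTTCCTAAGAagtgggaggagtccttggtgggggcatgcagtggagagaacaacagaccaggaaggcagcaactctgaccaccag
Serpina3b, chr12:104127746-104128045, plus strand: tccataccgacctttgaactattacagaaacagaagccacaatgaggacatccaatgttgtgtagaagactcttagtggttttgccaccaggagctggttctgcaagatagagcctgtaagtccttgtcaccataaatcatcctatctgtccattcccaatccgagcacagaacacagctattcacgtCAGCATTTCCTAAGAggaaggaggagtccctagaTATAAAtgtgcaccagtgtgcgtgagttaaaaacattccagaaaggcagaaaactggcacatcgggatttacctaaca
Serpina3a, chr12:104112474-104112773, plus strand: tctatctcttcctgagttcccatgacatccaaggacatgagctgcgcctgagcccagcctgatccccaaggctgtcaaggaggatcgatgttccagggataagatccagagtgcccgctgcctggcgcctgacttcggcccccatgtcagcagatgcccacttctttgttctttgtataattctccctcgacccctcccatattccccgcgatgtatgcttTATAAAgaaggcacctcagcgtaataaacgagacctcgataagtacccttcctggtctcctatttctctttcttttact
The run, searched on both strands, was found in 4 of 32851 promoter windows, 0.0122%, and these 4 belong to Serpina3n, Serpina3c, Serpina3i and Serpina3b. It was chosen after the values of these genes were known. Its presence in the windows of Serpina3n, Serpina3i and Serpina3b was fixed by that choice. Aligned end to end, the Serpina3n window was identical to that of Serpina3c at 91.7% of the 300 bases, to that of Serpina3b at 71.3% and to that of Serpina3i at 69.3%. Against Serpina3a it reached 52.7%, close to the 52.3% found against Serpina5, a clade A gene outside the Serpina3 group. TATAAA, searched on both strands, was found in 13.6% of all windows and in 14 of 55 member windows. TTCNNNGAA, the palindromic letters of a STAT site, was found in 8.3% of all windows and in 8 member windows, which belong to Serpina1f, Serpina3f, Serpina3g, Serpina3i, Serpinb2 and Serpinb6a. The palindromic steroid receptor element, searched on both strands, was found in 0.475% of all windows and in 3 member windows, those of Serpina3c, Serpina3n and Serpinf2. These matches describe letters and not bound sites.

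The gene with the window most like that of Serpina3n showed no call. Serpina3c had 165 and 322 counts in control against 340 and 242 in the vKO libraries. In CPM these were 7.06 and 10.7 against 12.7 and 8.97, so the groups overlapped, with a log2 fold change of 0.28 (adjusted p 0.665, SE 0.24). That value was 0.01 without control replicate 1 or without Ythdf2-vKO replicate 1, and 0.62 without control replicate 2. Whether the Serpina3n and Serpina3c changes differ was not tested.

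Serpina3i had 1 and 8 counts in control against 32 and 46 in the vKO libraries. Its groups did not overlap, and the log2 fold change was 3.10 (adjusted p 0.0692, SE 0.66). The value was 2.42 without control replicate 1 and 4.93 without control replicate 2. It was 3.34 without Ythdf2-vKO replicate 1 and 2.83 without Ythdf2-vKO replicate 2. Serpina3h, annotated as a transcribed pseudogene, had 7 and 18 counts in control against 43 and 28 in the vKO libraries, with a log2 fold change of 1.52 (adjusted p 0.221, SE 0.52). Its transcript is 93.2% identical to that of Serpina3f over 1116 nt, so counts between such neighbours are uncertain.

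Serpina3a and Serpina3b lie next to Serpina5 at the other side of the Serpina3 group. Serpina3b had 1.84 and 2.23 CPM in control and 5.42 and 4.15 in the vKO libraries. Both vKO values stood above both control values, with a log2 fold change of 1.22 (adjusted p 0.0871, SE 0.28). Serpina3a had 497 and 924 counts in control against 1071 and 1245 in the vKO libraries, again without overlap. Its log2 fold change was 0.72 (adjusted p 0.107, SE 0.18), and control 1 was the lowest library. In the authors' deposited table Serpina3a passed, with a log2 fold change of 0.72 and an adjusted p of 0.0315, while Serpina3b stood at 0.058. Without control replicate 1 the log2 fold change was 0.48 for Serpina3a and 1.09 for Serpina3b, and without control replicate 2 it was 1.02 and 1.38. Without Ythdf2-vKO replicate 1 it was 0.82 and 1.02, and without Ythdf2-vKO replicate 2 it was 0.62 and 1.40.

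Serpina3g encodes an inhibitor of lysosomal cathepsins. It had 16.4 and 24.4 CPM in control and 30.3 and 22.5 in the vKO libraries, with overlapping groups and a log2 fold change of 0.37 (adjusted p 0.46, SE 0.21). That value was 0.11 without control replicate 1 and 0.14 without Ythdf2-vKO replicate 1. Without control replicate 2 it was 0.69. Serpina3f had 1 and 37 counts in control against 21 and 7 in the vKO libraries, so its libraries differed more within groups than between them.

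Serpina5 encodes protein C inhibitor, a secreted serpin needed for male fertility in mice. It had a mean of 34.5 CPM per kb of exon, beside 32.8 for Serpinb6a. The joined exons of Serpinb6a span 5409 nt and its longest transcript 2191 nt. The order of these genes per length thus depends on the length used. In CPM Serpina5 had 52.1 and 72.2 in control against 95.3 and 79.0 in the vKO libraries, or 62.2 ± 14.2 against 87.2 ± 11.5 (SD, n = 2 each). The groups did not overlap, the gap between them was smaller than that between the control libraries, and the log2 fold change was 0.49 (adjusted p 0.221, SE 0.16). Without control replicate 2 it was 0.74, and the lowest value with 1 library left out was 0.27.

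The Serpina1 genes encode alpha-1-antitrypsin, an inhibitor of neutrophil elastase that is made mainly by the liver. Serpina1a had 18 and 22 counts in control against 44 and 43 in the vKO libraries. The replicates lay close together in both groups, with a log2 fold change of 1.10 (adjusted p 0.245, SE 0.41). Serpina1a and Serpina1c are 98.6% identical over 1333 nt, and Serpina1b and Serpina1d overlap on the same strand, so the division of reads within Serpina1a to Serpina1e is uncertain. Summed over these 5 genes, counts were 68 and 73 in control against 123 and 119 in the vKO libraries. Other genes known for expression in the liver had values on both sides. Ambp, the gene of an inhibitor precursor, had 47 and 52 counts in control against 115 and 100 in the vKO libraries (log2 fold change 1.10, adjusted p 0.121), and Itih2 had a log2 fold change of 0.63 (adjusted p 0.221). The plasma protein list summed to between 4.83 and 6.84 CPM in control and between 5.37 and 6.72 in the vKO libraries, with 1 of 3 tested positive and a median of -0.41. Its defining genes Alb, Ttr and Fga are not in the deposited table, which holds no gene under 10 counts over the 4 libraries. The part of plasma or liver RNA in the Serpina1 values was not tested.

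Marker lists of several cell types had positive medians as well. The Sertoli list summed to between 1211 and 1271 CPM in control and between 1515 and 1706 in the vKO libraries. Of its 15 genes, 15 had a positive log2 fold change, the median was 0.44, and 1 gene, Wt1, was called (0.71, adjusted p 0.0418). The Leydig list summed to between 301 and 365 CPM in control and between 357 and 478 in the vKO libraries, with 7 of 8 positive, a median of 0.38 and no gene called. The Leydig sums of the groups overlapped. The spermatogonia list summed to between 94.3 and 95.5 CPM in control and between 104 and 116 in the vKO libraries, with 7 of 7 positive and a median of 0.41. The endothelial list summed to between 23.4 and 34 CPM against between 36.6 and 42.7, with 5 of 6 positive and a median of 0.40. Most of each endothelial sum came from Vwf. The erythrocyte list summed to between 26.8 and 32.5 CPM against between 39.3 and 42.2, with 4 of 4 positive and a median of 0.76. Most of each erythrocyte sum came from Alas2. No gene of these 3 lists was called, and no gene of these 5 lists was at 0 in any library. The spermatocyte list went the other way, with 1 of 7 positive, a median of -0.13 and no gene called. GC-rich genes tended towards higher values in the vKO libraries (Spearman 0.293). Median GC content was 52.5% for the Sertoli list, 42.1% for the spermatocyte list and 48.9% for all genes. The elongating spermatid list, at 52.9%, had a negative median of -0.27. The part of GC content in the list medians, and of these cell types in the values of the serpins, was not tested.

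**Figure D4:**
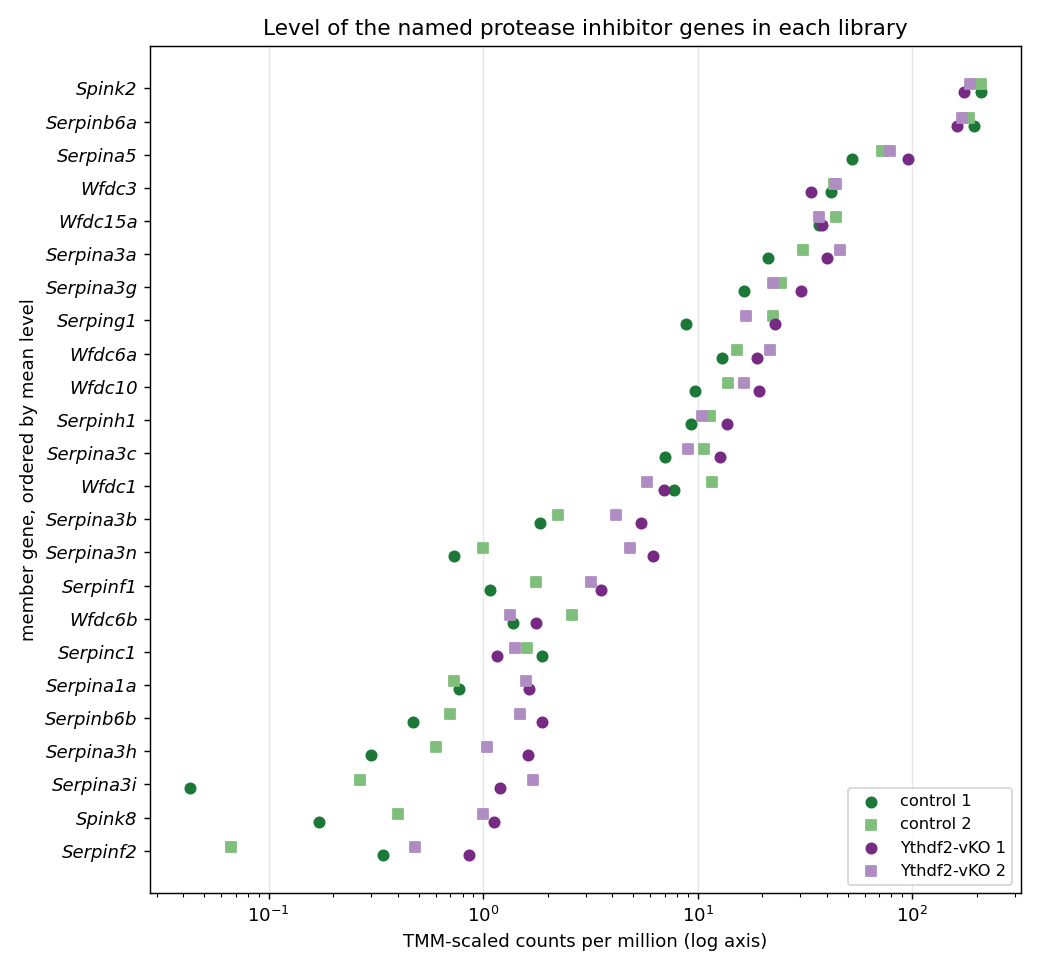
TMM-scaled CPM (horizontal log axis) of the 24 named members in each of the 4 libraries, ordered by mean level; green marks control, purple the vKO libraries, circles library 1 and squares library 2. The purple points of Serpina3n stand clear of the green ones, Spink2 and Serpinb6a lie at the top with green to the right of purple, and Serping1 has control 1 far to the left.

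Serpinf1 encodes pigment epithelium-derived factor, a secreted serpin without inhibitory activity that restrains blood vessel growth. Its CPM values were 1.07 and 1.77 in control against 3.55 and 3.19 in the vKO libraries, without overlap, and its log2 fold change was 1.23 (adjusted p 0.134, SE 0.33). With 1 library left out, the Serpinf1 value ran from 0.92 to 1.65. Serpinf2, its neighbour on chromosome 11, encodes alpha-2-antiplasmin, the main inhibitor of plasmin. It had 8 and 2 counts in control against 23 and 13 in the vKO libraries, a log2 fold change of 1.77 (adjusted p 0.32, SE 0.77). With 1 library left out, that value ran from 0.96 to 3.24.

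Serping1 encodes C1 inhibitor, which restrains complement and kallikrein. It had 206 and 671 counts in control against 612 and 452 in the vKO libraries. Control 1 alone was low, the other 3 libraries lay between 16.8 and 22.9 CPM, and the log2 fold change was 0.33 (adjusted p 0.82, SE 0.46). Without control replicate 1 it was -0.18. Without control replicate 2 it reached 1.17. The macrophage list showed a similar order of the control libraries, with sums of 52.6 CPM in control 1 and 80.7 in control 2, and of 78.4 and 64.5 in the vKO libraries. Of its 7 genes, 6 had a positive log2 fold change, with a median of 0.07 and no gene called. Its part in the value of Serping1 was not tested.

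Serpinh1 encodes a collagen chaperone of the endoplasmic reticulum. It had 9.33 and 11.4 CPM in control and 13.7 and 10.5 in the vKO libraries, which overlap (log2 fold change 0.22, adjusted p 0.678, SE 0.20). The value was 0.04 with an offset for GC content and ran from 0.01 (without Ythdf2-vKO replicate 1) to 0.40 (without Ythdf2-vKO replicate 2) with 1 library left out. Serpinc1 encodes antithrombin and had 44 and 48 counts in control against 31 and 38 in the vKO libraries, a log2 fold change of -0.44 (adjusted p 0.658, SE 0.37). It overlaps Zbtb37 on the opposite strand, and whether strand was used in counting is not given in the sources used here. Serpine2, the gene of the thrombin inhibitor protease nexin, stayed under 2 CPM in every library, with a log2 fold change of -0.16 (adjusted p 0.911). Plat, the gene of tissue plasminogen activator, had 141 and 292 counts in control against 374 and 258 in the vKO libraries (log2 fold change 0.57, adjusted p 0.344). Serpini1, the neuroserpin gene, ran from 5.34 to 7.74 CPM over the 4 libraries, with a log2 fold change of -0.15 (adjusted p 0.83).

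Clade B serpins act inside cells. Serpinb6a, an inhibitor of cathepsin G, was the most counted serpin, with 4551 and 5531 counts in control against 4321 and 4585 in the vKO libraries. In CPM these were 195 and 184 against 161 and 170, so the vKO libraries were both lower, with a log2 fold change of -0.19 (adjusted p 0.504, SE 0.12). The span of Nqo2 on the opposite strand overlaps that of Serpinb6a over 23757 nt, introns included. Nqo2 had 1071 and 1370 counts in control against 773 and 931 in the vKO libraries. Reads on bases shared by exons of both genes cannot be told apart without strand, and the overlap of exons was not measured. Serpinb6b, a relative of Serpinb6a in the same chromosome 13 cluster, had far lower counts, 11 and 21 in control against 50 and 40 in the vKO libraries. Its groups did not overlap, with a log2 fold change of 1.49 (adjusted p 0.163, SE 0.44). Serpinb9, an inhibitor of granzyme B, had 3.94 and 5.14 CPM in control and 3.55 and 5.49 in the vKO libraries, a log2 fold change of -0.01 (adjusted p 0.993, SE 0.27). Over the 8 tested clade B genes, 5 had a positive value (background 50.3%), 1 had an unadjusted p under 0.05 (background 14.1%) and 0 were called (background 0.393%).

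The Kazal-type gene Spink2 was the most abundant member by CPM and per length, at a mean of 247 CPM per kb of exon. Its protein is found in the acrosome of spermatids and sperm, where it restrains acrosomal proteases. It had 4885 and 6251 counts in control against 4669 and 5005 in the vKO libraries. The control libraries agreed at 209 CPM each, and the vKO libraries stood at 174 and 186, or 209 ± 0.341 against 180 ± 7.85 (SD, n = 2 each). The groups did not overlap, with a log2 fold change of -0.21 (SE 0.12) that did not pass the threshold (adjusted p 0.448).

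Spermatid genes stood on the same side as Spink2 in part. The elongating spermatid list summed to between 8935 and 11039 CPM in control and between 8589 and 8732 in the vKO libraries, with 1 of 8 positive, a median of -0.27 and no gene called. The round spermatid list summed to between 1362 and 1418 CPM in control and between 1279 and 1390 in the vKO libraries, with 3 of 6 positive, a median of 0.02 and no gene called. Acr, the gene of the acrosomal protease acrosin, had 4389 and 3923 counts in control against 5190 and 4874 in the vKO libraries (log2 fold change 0.23, adjusted p 0.563, SE 0.16). The part of these cells in the value of Spink2 was not tested. The other tested Spink genes were scarce. Spink8 had 4 and 12 counts in control against 30 and 27 in the vKO libraries (log2 fold change 1.83, adjusted p 0.187, SE 0.58). Spink4 had 13 and 11 against 22 and 28 (log2 fold change 1.02, adjusted p 0.421, SE 0.53).

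The Wfdc genes showed both directions and no call. Of 10 tested, 6 had a positive log2 fold change (background 50.3%), with a median of 0.26. That median was -0.04 without control replicate 1. Wfdc15a and Wfdc3 were the most counted. Wfdc15a had 36.8 and 44.1 CPM in control and 37.9 and 36.8 in the vKO libraries, with a log2 fold change of -0.12 (adjusted p 0.778, SE 0.14). Wfdc3 had 41.8 and 43.3 against 33.6 and 44.3, with a log2 fold change of -0.13 (adjusted p 0.774, SE 0.15). In both genes the groups overlapped.

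Wfdc6a and Wfdc10 share the chromosome 2 cluster with Eppin, the gene of an inhibitor on the sperm surface. Wfdc6a had 12.9 and 15.3 CPM in control and 18.9 and 21.8 in the vKO libraries, with a log2 fold change of 0.53 (adjusted p 0.186, SE 0.17). Wfdc10 had 9.71 and 13.9 CPM in control and 19.2 and 16.4 in the vKO libraries, with a log2 fold change of 0.58 (adjusted p 0.207, SE 0.19). Neither gene's groups overlapped. With 1 library left out, the value ran from 0.40 to 0.66 for Wfdc6a and from 0.35 to 0.87 for Wfdc10. Eppin itself had 500 and 990 counts in control against 1083 and 1171 in the vKO libraries, a log2 fold change of 0.62 (adjusted p 0.178, SE 0.19). Wfdc6b is 92.1% identical to Wfdc6a over 813 nt, and had 32 and 78 counts in control against 47 and 36 in the vKO libraries, with a log2 fold change of -0.38 (adjusted p 0.728, SE 0.39).

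Wfdc1, on chromosome 8, encodes a secreted growth-restraining protein of stromal cells. It was the member with the most negative log2 fold change, -0.61 (adjusted p 0.255, SE 0.23). Its CPM values were 7.74 and 11.7 in control against 6.99 and 5.82 in the vKO libraries, so the groups were separated by a small gap. The value was -0.88 without control replicate 1 and -0.27 without control replicate 2. The peritubular myoid list summed to between 228 and 257 CPM in control and between 203 and 250 in the vKO libraries, with 2 of 6 positive and a median of -0.05. Most of each sum came from Actg2, with 180 and 176 CPM in control and 172 and 148 in the vKO libraries. The part of these cells in the value of Wfdc1 was not tested.

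Not tested were 11 members with 10 to 51 counts over the 4 libraries. They were Serpina16, Serpina1b, Serpina3k, Serpina6, Serpinb2, Serpinb8, Serpinb9d, Serpini2, Spink10, Wfdc12 and Wfdc2. Spink and Wfdc genes are known for high expression in the epididymis. Of 10 epididymis and efferent duct genes, 6 are not in the deposited table, among them Lcn5, Lcn8 and Lcn9. The other 4 summed to between 211 and 214 CPM in control and between 170 and 175 in the vKO libraries, with 0 of 3 tested positive, and nearly all of that sum came from Cst8. Over all members, 29 had a mean of at least 1 CPM and 11 of at least 10. Spink2, Serpinb6a and Serpina5 together took 62.3% of the members' counts.

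Inhibitors of other families and the proteases themselves were read from lists. Of 45 other protease inhibitors listed, 33 were tested, 23 had a positive log2 fold change (background 50.3%) with a median of 0.12, and 1 was called (background 0.393%). That gene was Cstl1, a cystatin-like gene, which fell from 67.2 and 61.5 CPM in control to 39.8 and 40.6 in the vKO libraries (log2 fold change -0.68, adjusted p 0.0484, SE 0.13). At an unadjusted p under 0.05 stood 6 of the 33 with higher values (background 7.65%) and 4 with lower values (background 6.47%). Groups did not overlap in 13 with higher values (background 22.7%) and in 5 with lower values (background 22.6%). Timp1, an inhibitor of matrix metalloproteinases, had 2 and 31 counts in control against 84 and 99 in the vKO libraries (log2 fold change 2.51, adjusted p 0.149, SE 0.64). A2m had the most negative value of the list, with 159 and 174 counts in control against 81 and 97 in the vKO libraries. Its log2 fold change was -0.93 (adjusted p 0.121, SE 0.24).

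Among 43 serine proteases tested, 24 had a positive value (background 50.3%), the median was 0.10 and 0 were called by edgeR, with 11 at an unadjusted p under 0.05 (background 14.1%), 5 higher and 6 lower. The 5 higher ones were Corin, Furin, Htra1, Klk1b21 and Plat. The 6 lower ones were Klk1b26, Prss21, Prss42, Prss43, Prss51 and Prss52. The Klk1b genes did not share a direction. The log2 fold change was -0.73 for Klk1b26 but 1.56 for Klk1b21, 1.99 for Klk1b22, 1.18 for Klk1b24 and 1.46 for Klk1b27. In all of these but Klk1b26, control 1 was far below control 2. Prss43 had 48.0 and 44.4 CPM in control and 30.3 and 30.1 in the vKO libraries (log2 fold change -0.61, adjusted p 0.0753, SE 0.13). Htra1, a secreted protease of the extracellular matrix, had 4.36 and 6.50 CPM against 12.5 and 9.71 (log2 fold change 1.02, adjusted p 0.0871, SE 0.23). Of the 10 cysteine cathepsins and caspases, 9 had a positive value (background 50.3%), the median was 0.29 and 0 were called, with 3 higher at an unadjusted p under 0.05 (background 7.65%). Ctsl, a lysosomal protease that is abundant in Sertoli cells, had 216 and 255 CPM in control and 377 and 329 in the vKO libraries (log2 fold change 0.59, adjusted p 0.0819, SE 0.13). Of 9 tested receptors and partners of secreted serpins, 7 had a positive value (background 50.3%), the median was 0.25 and 0 were called, with 3 higher at an unadjusted p under 0.05 (background 7.65%).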

How the data were processed

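Raw read counts per gene and library were deposited by the authors, with HISAT2 2.1.0 and HTSeq 0.6.1p1 named in the submitters' processing notes. Settings, strand use and genome build are not given in the sources used here. The authors also deposited the mean normalized count, a signal of counts divided by size factors, and, per the file headers (DESeq2's column names), a log2 fold change, SE, test score, p-value and adjusted p-value. Counts were fitted for all genes in R 4.3.3 by edgeR 4.0.16 and limma 3.58.1. TMM scaling and the filterByExpr filter preceded a robust quasi-likelihood fit of the labelled group and a two-sided F test. The scripts were tested on simulated data. SE is the absolute log2 fold change over the square root of F. CPM are TMM-scaled. Control totals were 24862518 and 29561182, and Ythdf2-vKO totals 26298245 and 26265700. The labels name no molecular identifiers. Replicates were not duplicates of one library, since chi-square over its degrees of freedom was 19.37 for the control pair and 7.841 for the other pair. Coordinates, exon lengths, GC content and overlaps of whole gene spans came from GENCODE M21 (GRCm38) by identifier. Similarity came from BLAST 2.17.0, and promoters from RefSeq (GRCm38.p6).

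Members and lists were chosen with earlier results of these data known. Named members were those called, those at an unadjusted p under 0.05, the 12 most abundant, and the 5 largest rises and 5 largest falls at a mean of at least 1 CPM, with Serpina3n and Spink2. Serpina3f, Serpinb7, Serpinb9, Serpine2, Serpini1 and Spink4 were added after their values were seen. Other genes are from lists of 12 cell types and 4 protease groups. The alternatives were DESeq2 1.42.0 and its size factors, library totals, other filters, no robust estimation, the replicate number as a block, a GC offset, another prior count and threshold, and leaving out each library.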

Additional observations from a re-analysis of the deposited data

How the results depend on the processing

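Of the 24 named members, none changed direction under any alternative that kept all 4 libraries. Serpina3n was called under all 14 alternatives, leaving out 1 library included, with log2 fold changes from 2.45 to 2.91 and adjusted p values from 4.38e-09 to 0.0337. The number of members called higher was 3 with library totals alone, 2 with no filter, 2 with the GC offset, 2 with the DESeq2 Wald test and 3 at an adjusted p under 0.1. The added genes were Serpina3i and Serpina3b, and Serpina3a with DESeq2. No alternative with all libraries called a member lower.

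Both groups carry replicate numbers 1 and 2, whose meaning the labels leave unsaid. Same-numbered libraries had deviations correlated at 0.0919. With 2 libraries a group this is 1 correlation, which cannot settle whether they are pairs. The main analysis took them as unpaired. With the replicate block 7 members were called higher (Serpina3a, Serpina3b, Serpina3i, Serpina3n, Serpinf1, Wfdc10 and Wfdc6a), and with the replicate block plus GC offset 4.

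Leaving out 1 library gave 1 to 11 members called higher and 0 to 1 lower (Wfdc1, without control replicate 1). A lone library is assumed there to vary like the other group. Log2 fold changes ran from -0.18 to 1.17 for Serping1, from -0.24 to 0.02 for Wfdc15a, from -0.34 to 0.06 for Wfdc3 and from -0.76 to 0.17 for Wfdc6b.

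Over all genes, 59 were called higher and 24 lower. The counts were 181 and 37 with library totals alone, 627 and 390 with the replicate block, 284 and 341 with the replicate block plus GC offset, 137 and 80 with the DESeq2 Wald test, and 141 and 76 at an adjusted p under 0.1. They were 76 and 66 with the GC offset, 87 and 35 with no filter, and 50 and 15 without robust estimation. With 1 library left out, 16 to 1075 were higher and 2 to 536 lower. Higher genes were 71.1% of the calls in the main analysis, 83% with library totals alone, 53.5% with the GC offset and 45.4% with the replicate block plus GC offset. The cause was not tested.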
